A study of Drosophila melanogaster with 30 samples.

Results

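The genes described are those of the cytosolic ribosomal proteins of Drosophila melanogaster. They were taken by name: every gene row whose FlyBase symbol starts with RpL or RpS, together with sta, which encodes a small subunit protein. Symbols ending in -like and a further ribosomal protein gene were left out, as were the mitochondrial ribosomal proteins (mRpL and mRpS). The rule gave 87 of the 17807 gene rows, 50 of the large and 37 of the small subunit, and 85 of them had enough reads to be tested.

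The samples were nuclei of outer photoreceptors, the eye cells that express the rhodopsin Rh1, from male flies at day 30 that were kept at 25 C under 12 h of light a day. Gal4 under the Rh1 promoter switched on a hairpin RNA (shRNA) that targets 1 gene, and nuclei tagged with GFP at their envelope were enriched with an antibody. All 10 groups therefore carried the driver, the tag and an shRNA, and they differed in the gene targeted. The targets were Spt5 and Spt6 (elongation factors of RNA polymerase II), dom (the ATPase of a remodelling complex that exchanges histone variants), TH1 (a subunit of the pausing factor NELF), Cdk12 (a kinase of the polymerase), Taf1 (a TFIID subunit), Top1 (a topoisomerase), Trl (the GAGA factor) and cnc (a factor of the oxidative stress response). The hairpin of the control group targets LexA, which comes from bacteria and has no counterpart in flies. Each group had 3 libraries labelled as biological replicates. In several groups the target named in the genotype label counts upward over the replicates, so that the label of Spt5 replicate 2 names Spt6. Groups follow the sample titles, in which it is an Spt5 library. The driver acts in outer photoreceptors, so other cells of the eye keep the targeted gene, and enriched nuclei can include some of theirs.

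Ribosomes are built in the nucleolus from ribosomal RNA and ribosomal proteins. The proteins are needed in matched amounts, and their genes are among the most evenly co-expressed genes of a cell. Flies that lack 1 copy of many of these genes show the Minute phenotype, with slow development and short bristles. In flies many of these promoters start transcription in a pyrimidine-rich initiator that uses the factor Trf2 in place of the TATA-binding protein. Because nuclear RNA was sequenced, the values describe transcripts in the nucleus, both unspliced and spliced, and not the cytoplasmic pool from which ribosomal proteins are made.

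Depth ran from 4064250 to 18024440 gene counts per library. None of the 9 targets was called lower than in LexA in its own group, so a knockdown was not shown in nuclear RNA for any group. The log2 fold change of the target lay between -0.41 (Taf1) and 0.67 (Trl), and that of Spt5 was -0.345 (SE 0.18, adjusted p 0.237). Spt5 had 56.1 to 64.3 CPM in its own group, below the 68.3 to 84.3 CPM of LexA. Trl had 14 to 21.9 CPM in its own group, above the 8.67 to 12.4 CPM of LexA. The files of Spt5 and Cdk12 share a layout that differs from that of the other 8 groups. Spt5 libraries had 59.2 to 94.5 and Cdk12 libraries 72.9 to 82.6 reads aligned to several places per 100 gene counts, against 17.7 to 21.7 in LexA. This difference and the targeted gene cannot be told apart in Spt5 against LexA, and Spt5 against Cdk12 was added as the comparison within that layout.

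The question put to the counts was whether the genes of the cytosolic ribosome differ when each regulator is targeted in photoreceptors. They were higher in Spt5 than in LexA in nearly every member of the set. Of the 85 tested genes, 76 were called higher in Spt5 and none lower, at an adjusted p under 0.05 over all 14888 genes. Over all genes tested, 11.0% were called higher and 5.42% lower. The median log2 fold change of the ribosomal protein genes was 1.37, and that of all genes was 0.05. These calls rest on a spread estimated over all 30 libraries. With only the 6 libraries of Spt5 and LexA in the fit, none of 82 tested was called (smallest adjusted p 0.119) and 77 had an unadjusted p under 0.05, with a median of 1.36. Of 11179 genes in all, that fit called 0 higher and 2 lower. The 9 genes not called are described further below, and the smallest adjusted p among the 85 was 0.0034.

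The rise rested mainly on Spt5 replicates 1 and 2. The median ribosomal protein gene stood 1.77, 1.7 and 0.38 above the LexA mean on the log2 CPM scale (counts scaled to a common library size) in Spt5 replicates 1, 2 and 3. The LexA libraries themselves stood at 0.005, -0.34 and 0.35. Spt5 replicate 3 was thus close to the highest LexA library. In Spt5 replicates 1, 2 and 3, 81, 82 and 45 of the 85 genes were above every LexA library, beside 35.1%, 33.5% and 29.1% of all genes. Without Spt5 replicate 3 the count called higher was 78 and the median 1.71, without Spt5 replicate 1 it was 12, and without Spt5 replicate 2 it was 25. It was 33 without LexA replicate 2, the LexA library with the lowest ribosomal protein level. Over all genes, 2294, 185, 504 and 818 were called higher in these fits, in the same order. In 43 genes all 3 Spt5 libraries were above all 3 LexA libraries, beside 10.1% of all genes. In 1 gene, RpS5b, all were below, beside 12.3% of all genes.

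**Figure D1:**
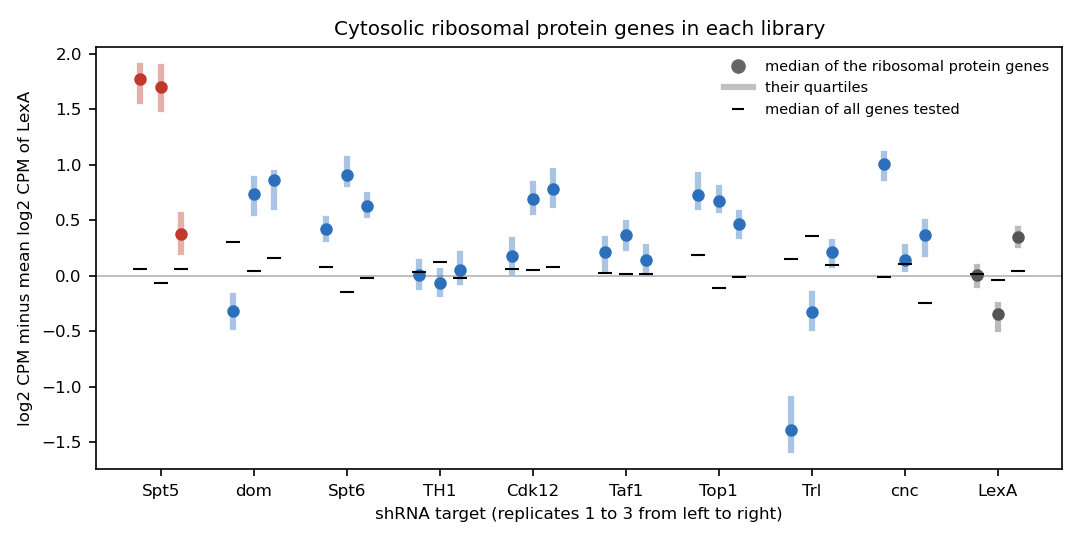
Median (dot) and quartiles (bar) of the 85 ribosomal protein genes in each of the 30 libraries, as the log2 CPM difference from the LexA mean, with the median of all 14888 genes as a dash. Spt5 replicates 1 and 2 stand at 1.77 and 1.7, Spt5 replicate 3 at 0.38, Trl replicate 1 at -1.39 and the LexA libraries between -0.34 and 0.35.

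Markers of cell types moved with the ribosomal protein genes in the same libraries. Of 13 outer photoreceptor markers, 10 fell in Spt5 and none rose. Their summed level was 26100, 26600 and 71300 CPM in Spt5 replicates 1, 2 and 3, against 90500 to 98000 CPM in LexA. Of 12 markers of other neurons, 11 rose, with sums of 521 to 2500 CPM in Spt5 and 432 to 638 CPM in LexA. Glial markers rose in 7 of 11 (431 to 1010 CPM in Spt5, 360 to 602 CPM in LexA), markers of inner photoreceptors in 5 of 6 (731 to 2540 CPM in Spt5, 601 to 842 CPM in LexA), of cone and pigment cells in 4 of 7 (373 to 847 CPM in Spt5, 367 to 400 CPM in LexA) and of fat body and hemocytes in 6 of 9 (1720 to 5490 CPM in Spt5, 1300 to 1820 CPM in LexA). Muscle markers were called in 0 of 9. Beside these counts, 11.0% of all genes were called higher and 5.42% lower. Every marker had reads in each of these groups. Gal4, which is transcribed from the driver, stood at 895, 1060 and 2820 CPM in Spt5 and at 3460 to 7680 CPM in LexA (of raw gene counts, without TMM scaling). Fewer outer photoreceptor nuclei and less RNA of a gene per nucleus cannot be told apart in such bulk libraries, and the part that these shifts have in the ribosomal protein result was not tested.

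The 3 proteins of the stalk, the arm of the large subunit that recruits the elongation factors, included the gene with the largest fold change and the gene with the smallest adjusted p. RpLP1 (FBgn0002593, chromosome 2L, 419952 to 420864 of BDGP6, 2 exon blocks) had 241, 245 and 62 CPM in Spt5, against 59.9, 35.8 and 60 CPM in LexA. Its level in Spt5 replicate 3 was just above the highest LexA library. The fold change was 3.52 (log2 1.81, SE 0.36, adjusted p 0.0034), and it was the smallest adjusted p of the set. RpLP2 (FBgn0003274), whose protein pairs with that of RpLP1, had 280, 300 and 65.9 CPM in Spt5, against 65.7, 37.7 and 64.5 CPM in LexA. Again replicate 3 lay at the level of LexA, and the other 2 Spt5 libraries were far above it. Its log2 fold change of 1.94 (SE 0.44, adjusted p 0.0048) was the largest of the 85, and the call was lost without Spt5 replicate 1 (log2 1.72). RpLP0, the protein that anchors the stalk, had 430, 393 and 125 CPM in Spt5, against 124, 96.7 and 146 CPM in LexA, so the groups overlapped. Its log2 fold change was 1.37 (SE 0.39, adjusted p 0.017).

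Among the other large subunit genes, RpL28 (FBgn0035422, chromosome 3L, 3220911 to 3222960), which holds 5 snoRNA genes in its introns, had 234, 275 and 99.7 CPM in Spt5, against 60.3, 43.9 and 80.1 CPM in LexA. All Spt5 libraries were above all LexA libraries (log2 fold change 1.73, SE 0.35, adjusted p 0.0034). RpL14 had 245, 271 and 95.5 CPM in Spt5, against 63.9, 37.7 and 79.3 CPM in LexA (log2 1.76, SE 0.37). RpL17 and RpL29 likewise lay above every LexA library in all 3 Spt5 libraries, with log2 fold changes of 1.67 and 1.49. RpL32, whose messenger is a common reference in fly quantitative PCR, had 236, 214 and 81.6 CPM in Spt5, against 52, 55.8 and 77.7 CPM in LexA. It rose like the rest of the set (log2 1.52, SE 0.34, adjusted p 0.0046). RpL5 and RpL11, whose proteins join the 5S ribosomal RNA before it enters the large subunit, rose to similar extents (log2 1.31 and 1.33).

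Small subunit genes rose by the same order of size. RpS13 had 130, 136 and 47.9 CPM in Spt5, against 36.3, 22.3 and 43.4 CPM in LexA (log2 1.62, SE 0.34, adjusted p 0.0038). RpS28b had 178, 197 and 97.7 CPM in Spt5, against 49.8, 51.4 and 68.6 CPM in LexA. In both genes every Spt5 library was above every LexA library. RpS6, whose protein is the substrate of S6 kinase, changed by 1.65 on the log2 scale (SE 0.36), and RpS3, which lies where messenger RNA enters the subunit, by 1.42 (SE 0.38). sta had 496, 474 and 155 CPM in Spt5, against 127, 112 and 173 CPM in LexA (log2 1.45, SE 0.37, adjusted p 0.0081). Spt5 replicate 3 lay within the range of LexA. RpS12, known in flies for a part in the competition between Minute and wild-type cells, rose by 1.34 (SE 0.39).

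RpS27A and RpL40 encode ribosomal proteins fused to ubiquitin and so also supply free ubiquitin. RpL40 had 127, 133 and 55.9 CPM in Spt5, against 39.9, 33.5 and 53.3 CPM in LexA (log2 1.32, SE 0.37, adjusted p 0.014). RpS27A had 114, 119 and 56.1 CPM in Spt5, against 41.9, 43.8 and 57.4 CPM in LexA (log2 1.01, SE 0.3, adjusted p 0.018), and its Spt5 range overlapped that of LexA. The fusion genes thus moved in the same direction as the others, and RpS27A was near the low end of the log2 fold changes among the genes called.

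**Figure D2:**
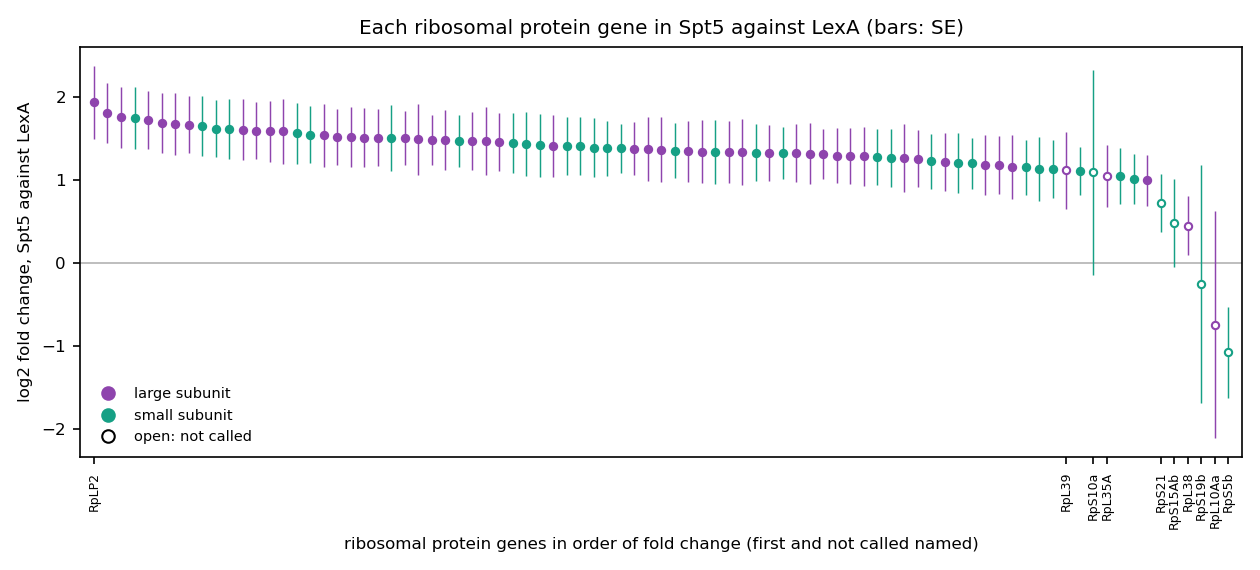
Log2 fold change of each of the 85 tested ribosomal protein genes in Spt5 against LexA, with its standard error as a bar, in order of size; the first gene and those not called are named on the axis. RpLP2 leads at 1.94, 76 genes are called (filled) and the 9 open symbols are not, among them RpS5b at -1.08.

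The 9 genes not called were of 2 kinds. The first were the lower copies of gene pairs with few reads: RpS19b (log2 -0.26, SE 1.43), RpL10Aa (-0.74, SE 1.37), RpS10a (1.09, SE 1.24), RpS15Ab (0.48, SE 0.53) and RpS5b (-1.08, SE 0.55). The sign of RpS19b turned when single libraries were left out. RpS5b, known in flies from the germ line, had 1.3, 0.86 and 2.46 CPM in Spt5, against 2.53, 3.9 and 3.35 CPM in LexA, with an adjusted p of 0.208.

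The others were expressed members. RpL38 had 25.8, 25.2 and 17 CPM in Spt5, against 17.2, 13.1 and 19.5 CPM in LexA (log2 0.45, SE 0.35, adjusted p 0.48), with overlapping ranges. RpS21 had 48.4, 49.8 and 14.2 CPM in Spt5, against 24.2, 15.2 and 28.6 CPM in LexA (log2 0.73, SE 0.35, adjusted p 0.181), also with overlap. RpL39 had 12.3, 13.4 and 12.8 CPM in Spt5, against 6.5, 1.42 and 9.86 CPM in LexA. It alone of these 4 had all Spt5 libraries above all LexA libraries, and its Spt5 replicate 3 did not stand below the other 2 (log2 1.12, SE 0.46, adjusted p 0.103). RpL35A missed the threshold narrowly (log2 1.05, SE 0.37, adjusted p 0.051).

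Members of different subunits, chromosomes and snoRNA content had medians close to each other in Spt5 against LexA. In log2 fold change, the median was 1.38 over 49 large subunit genes and 1.34 over 36 small subunit genes. It was 1.41 over the 15 genes on the X chromosome and 1.36 over the 70 tested on autosomes. The 28 genes that hold snoRNA genes inside, 75 snoRNA genes in all, had a median of 1.38 and all 28 were called, and the 57 tested genes without them had a median of 1.36, with 48 called. Across the 80 genes with a mean log2 CPM of at least 2, Spearman's rho between the log2 fold change and the exon length was 0.04 in Spt5 against LexA. In the 9 genes whose exons overlap those of another gene by at least 100 bp, where reads of the partner could be counted or lost, the median was 1.33 and all 9 were called. The 4 tested genes with a single exon block stood apart, with a median of 0.79 and 1 called, against a median of 1.38 and 75 called in the 81 genes with more blocks. They are RpLP2, which was called, and the low copies RpL10Aa, RpS10a and RpS15Ab. These are descriptions across genes that share the same libraries.

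The set moved almost as 1 unit over the 30 libraries. The Pearson correlation of a gene's log2 CPM with the mean of the other 84 was 0.969 for the median gene, and 73 of the 85 had at least 0.9. It was 0.957 over the 27 libraries without Spt5 and 0.964 after each group's mean was removed, so libraries of the same group also differed by a shared ribosomal protein level. Reads outside annotated features also differed between libraries. In Spt5, Spt6 and TH1 their order was opposite to that of the ribosomal protein level, and in LexA it was the same. The library with most such reads had the lowest level in dom, Cdk12 and cnc, the highest in Top1 and the middle one in Taf1 and Trl. Such reads numbered 55.4, 65.6 and 106 per 100 gene counts in Spt5 replicates 1, 2 and 3, and 84.3, 79.3 and 92.4 in LexA replicates 1, 2 and 3. What part this has was not tested. The lowest correlations were those of the copies with few reads, RpS5b (-0.52), RpL10Aa (-0.51), RpS19b (-0.39) and RpS10a (0.14), and of RpL39 (0.71).

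The ribosomal protein genes together held 2.16%, 2.24% and 0.707% of gene counts in Spt5 and 0.476%, 0.339% and 0.633% in LexA. The group means in order were 1.7% ± 0.864 in Spt5, 0.871% ± 0.175 in Top1, 0.801% ± 0.239 in dom, 0.798% ± 0.15 in Spt6, 0.768% ± 0.163 in Cdk12, 0.734% ± 0.239 in cnc, 0.55% ± 0.0844 in Taf1, 0.542% ± 0.0198 in TH1, 0.512% ± 0.219 in Trl and 0.483% ± 0.147 in LexA (SD, n = 3 each). These shares are of raw counts, without TMM scaling, and every neighbouring pair in this order overlapped between libraries. LexA had the lowest mean, and TH1 had the least spread.

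Per kb of exon, high levels averaged over the 10 groups were those of RpL4 (186 CPM per kb), RpL6 (183), RpL23 (173) and RpL8 (173). RpL4 had 381 CPM per kb in Spt5 and 131 CPM per kb in LexA. The lowest tested genes were RpL10Aa (0.527 CPM per kb), RpS19b (0.819), RpS10a (0.981), RpS5b (2.45) and RpS15Ab (3). RpS28a (0.819 CPM per kb) and RpL37-2 (0.493) had at most 11 and 10 reads in any library and were not tested. The set thus covers a range of levels in which a few paralogs are far below the rest.

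The 9 pairs of paralogs show which copy these nuclei use, as far as reads can be assigned between related sequences. In 7 pairs the lower copy gave a median of under 4% of the pair's CPM per kb: RpL10Aa 0.621%, RpL37-2 0.242%, RpS5b 3.32%, RpS10a 1.35%, RpS15Ab 3.67%, RpS19b 1.27% and RpS28a 0.297%. RpL34a and RpS14b differed from these, with medians of 30.4% and 35.5%. RpS14a and RpS14b lie side by side as near-identical copies, so the reads of this pair may be split or lost, and their shares are uncertain. RpS14b had a log2 fold change of 1.1 in Spt5 against LexA and RpS14a one of 1.56, and both were called. The share of RpS5b in its pair was 1.81% in Spt5 and 5.92% in LexA, while RpS5a itself rose (log2 1.27, SE 0.35, adjusted p 0.012). The highest shares of 7 of the 9 lower copies were found in Trl replicate 1 or 2. All of these but RpL34a had at most 52 reads in any library. Partners stood low there, such as RpL10Ab at 18.3 CPM per kb in Trl replicate 1, against a mean of 65.8. Trl replicates 1 and 2 also had 134 and 172 reads outside annotated features per 100 gene counts. What part these have was not tested.

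**Figure D3:**
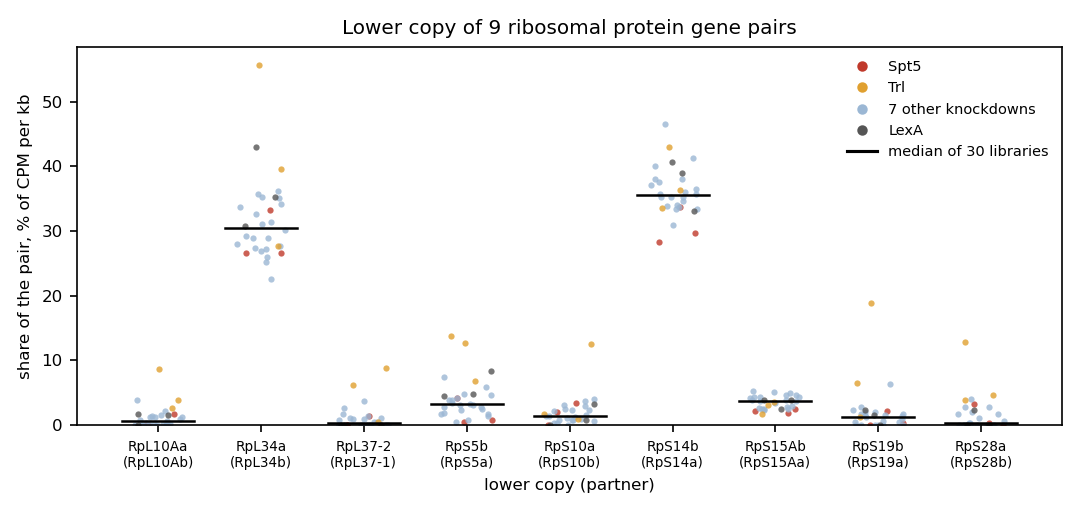
Share of the lower copy in each of 9 pairs of ribosomal protein genes, in percent of the pair's CPM per kb, with 1 point per library and the median of 30 libraries as a line. RpL34a and RpS14b hold medians of 30.4% and 35.5% and the other 7 copies at most 3.67%.

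Within Spt5, some members departed from the median of the set. On the log2 CPM scale and relative to LexA, the difference from the median member, averaged over 3 libraries, was -0.845 for RpL38 and -0.721 for RpS21. It was 0.417 for RpLP2 and 0.397 for RpL14. For RpL38, RpS21 and RpL14 all Spt5 libraries lay outside the LexA range on this relative scale, and for RpLP2 they overlapped it. These are differences among members and carry no test.

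When dom was targeted, no ribosomal protein gene was called by edgeR in either direction, beside 10.4% of all genes called. At an unadjusted p under 0.05, 3 were higher, beside 11.9% of all genes, and DESeq2 called 1 higher. The median log2 fold change was 0.5, and that of all genes was 0.21. Without dom replicate 1, 37 genes had an unadjusted p under 0.05 and the median was 0.74, with 1 called. Of 15296 genes in all, that fit called 683 higher and 460 lower. Ribosomal protein genes with an unadjusted p under 0.05 numbered 10 without LexA replicate 3, and 0 to 2 without any other single library. The 3 dom libraries disagreed: the median member stood at -0.32, 0.74 and 0.86 from the LexA mean in replicates 1, 2 and 3. In replicates 2 and 3, 75 and 77 of 85 genes were above every LexA library, beside 32.8% and 35.1% of all genes. In replicate 1, 2 were above and 40 were below every LexA library, beside 44.1% and 29.9% of all genes. As a share of raw gene counts, without TMM scaling, the set held 0.544% in dom replicate 1, against 0.339% to 0.633% in LexA. Dom replicate 1 also had 122 reads outside annotated features per 100 gene counts, against 64.7 and 71.7 in the other dom libraries, and what part this has was not tested. Outer photoreceptor markers summed to 60200 to 77400 CPM and markers of other neurons to 697 to 1020 CPM in dom, against 90500 to 98000 CPM and 432 to 638 CPM in LexA.

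The genes with the smallest p in dom were RpL22 and sta. RpL22, a large subunit protein, had 82.5, 215 and 190 CPM in dom, against 87.9, 78.1 and 90.9 CPM in LexA (log2 0.92, SE 0.36, adjusted p 0.104). sta had 127, 289 and 315 CPM in dom, against 127, 112 and 173 CPM in LexA (log2 0.83, SE 0.36, adjusted p 0.16). In both genes dom replicate 1 lay within the LexA range and the other dom libraries above it. Relative to the median member, RpL22 and sta stood 0.38 and 0.314 higher in dom and outside the LexA range, and RpS20 at -0.41.

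The direct comparison of Spt5 with dom called 18 genes higher in Spt5 and none lower, beside 3.43% of all genes called higher and 4.76% called lower. The set had a median of 0.91 and all genes one of -0.01 on the log2 scale. RpL29, a large subunit protein, had 79.3, 103 and 49.9 CPM in Spt5, against 22.8, 37.6 and 39.5 CPM in dom (log2 1.22, SE 0.3, adjusted p 0.0093). Every Spt5 library was above every dom library. RpL28 (1.38), RpS15 (1.47), RpL14 (1.43) and RpS28b (1.18) were also among those called. In 9 genes all Spt5 libraries were above all dom libraries, beside 8.12% of all genes. Without Spt5 replicate 3 the count was 75, without Spt5 replicate 2 it was 0, without Spt5 replicate 1 it was 3, and without dom replicate 1 it was 1. Over all genes, 1658, 221, 218 and 180 were called higher in these fits, in the same order. With only the 6 libraries of these groups in the fit, 0 ribosomal protein genes were called. These groups differ in file layout, with 59.2 to 94.5 reads aligned to several places per 100 gene counts in Spt5, against 20 to 29.8 in dom, which cannot be told apart from the targeted gene. Of the outer photoreceptor markers, 3 of 13 were lower in Spt5, and 4 of 9 fat body and hemocyte markers, 1 of 6 of inner photoreceptors and 1 of 7 of cone and pigment cells were higher. Of 11 glial markers 1 was lower, and none of 12 of other neurons or 9 of muscle was called by edgeR. Summed levels were 26100 to 71300 CPM in Spt5 and 60200 to 77400 CPM in dom for outer photoreceptors, and 1720 to 5490 CPM in Spt5 and 1260 to 1760 CPM in dom for fat body and hemocytes. What part these have was not tested.

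In Spt5 against Cdk12, the comparison within 1 file layout, 5 genes were called higher in Spt5 and none lower, beside 5.73% of all genes called higher and 1.01% called lower. The first is a share near that of the ribosomal protein genes. At an unadjusted p under 0.05, 61 were higher, beside 13.6% of all genes. The 5 were RpLP2, RpL4, RpLP1, RpL8 and RpL3, all of the large subunit. RpLP2 had 280, 300 and 65.9 CPM in Spt5, against 47.8, 85.1 and 80.8 CPM in Cdk12 (log2 1.59, SE 0.43, adjusted p 0.024). RpL4 had 741, 632 and 228 CPM in Spt5, against 167, 259 and 226 CPM in Cdk12 (log2 1.3, SE 0.38, adjusted p 0.034). In all 85 genes the groups overlapped. Without Spt5 replicate 3 the count was 68, beside 1966 of 15411 genes in all. Without any other single library of these groups it was 0. It was also 0 with only these 6 libraries in the fit. Over the set the log2 fold changes had a median of 0.83, and over all genes of -0.03. With reads outside features as a covariate, the median of the set was 0.42 and that of all genes 0.11. In that fit 6 ribosomal protein genes had an unadjusted p under 0.05, and 0 were called. Outer photoreceptor markers summed to 26100 to 71300 CPM in Spt5, against 75800 to 84600 CPM in Cdk12, and 4 of 13 were lower in Spt5. Gal4 stood at 895 to 2820 CPM in Spt5, against 6480 to 11000 CPM in Cdk12 (without TMM scaling). Higher in Spt5 were 8 of 12 markers of other neurons, 5 of 6 of inner photoreceptors and 5 of 9 of fat body and hemocytes. So were 4 of 11 of glia and 4 of 7 of cone and pigment cells. Of the latter 1 was lower, and 0 of 9 muscle markers were called. What part these have was not tested. Spt5 against dom and Spt5 against Cdk12 share their Spt5 libraries with Spt5 against LexA, and the 9 comparisons with LexA share the LexA libraries.

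**Figure D4:**
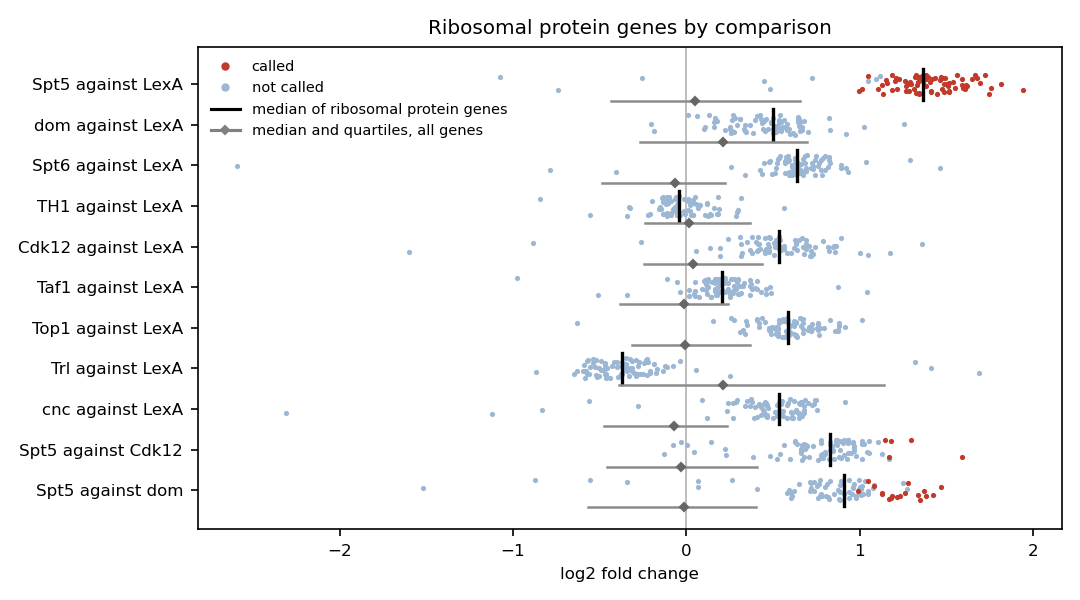
Log2 fold change of the 85 tested ribosomal protein genes in 11 comparisons (red, called; blue, not called), with their median as a black line and the median and quartiles of all 14888 genes below. Calls appear in Spt5 against LexA (76), Spt5 against dom (18) and Spt5 against Cdk12 (5), and Trl has the lowest median, -0.37, which is 0.13 with reads outside features as a covariate.

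Cdk12 itself had no ribosomal protein gene called against LexA by edgeR, beside 0.195% of all genes, and DESeq2 called 3 higher. At an unadjusted p under 0.05, 16 were higher and 1, RpS5b, was lower, beside 3.1% and 3.58% of all genes. On the log2 scale the set had a median of 0.53 and all genes one of 0.04. RpS29, a small subunit protein, had 97.6, 142 and 176 CPM in Cdk12, against 61.2, 45.9 and 76.7 CPM in LexA (log2 1.18, SE 0.34, adjusted p 0.233). RpL41, the gene of the shortest ribosomal protein, had 55.3, 68.3 and 82.9 CPM in Cdk12, against 24.4, 21.3 and 34.9 CPM in LexA (log2 1.36, SE 0.39, adjusted p 0.233). In both genes every Cdk12 library was above every LexA library, as in 19 genes in all, beside 9.44% of all genes. Genes with an unadjusted p under 0.05 numbered 7, 5 and 31 without LexA replicates 1, 2 and 3, and 32, 7 and 4 without Cdk12 replicates 1, 2 and 3. Over all genes, these fits called 2 to 13 higher.

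The members did not all shift alike in Cdk12. Relative to the median member, RpL41 stood 0.813 and RpS29 0.613 higher in Cdk12, outside the LexA range, and RpL22 (-0.513) and RpL3 (-0.425) lower and outside it. Over 80 genes, Spearman's rho of the log2 fold change with exon length was -0.29 in Cdk12 against LexA and 0.4 in Spt5 against Cdk12.

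Spt6, the other elongation factor, had no ribosomal protein gene called, beside 0.107% of all genes, and none by DESeq2. At an unadjusted p under 0.05, 23 were higher, beside 4.22% of all genes, with a median log2 fold change of 0.64 over the 85 genes and -0.07 over all genes. In 55 genes all Spt6 libraries lay above all LexA libraries, beside 7.02% of all genes. The count at an unadjusted p under 0.05 was 2 without LexA replicate 2 or Spt6 replicate 2, 7 without LexA replicate 1, 46 without LexA replicate 3 and 67 with only the 6 libraries in the fit. With only the 6 libraries, 14 of 10400 genes in all were called higher and 6 lower. RpL41 had 65.9, 73.2 and 58.1 CPM in Spt6, against 24.4, 21.3 and 34.9 CPM in LexA (log2 1.29, SE 0.39, adjusted p 0.394). RpL39 had 17.1, 18.9 and 12.9 CPM in Spt6, against 6.5, 1.42 and 9.86 CPM in LexA (log2 1.47, SE 0.47, adjusted p 0.457). These are among the shortest transcripts of the set, with 320 and 288 bp of exon.

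In Top1, likewise, no gene was called, beside 0.43% of all genes, and none by DESeq2, and 15 were higher at an unadjusted p under 0.05, beside 3.96% of all genes. The set's median on the log2 scale was 0.59, and that of all genes was -0.01. In 56 genes all Top1 libraries were above all LexA libraries, beside 8.15% of all genes. RpS25 had 87.6, 92.3 and 68 CPM in Top1, against 45.9, 36.5 and 52.7 CPM in LexA (log2 0.88, SE 0.33, adjusted p 0.433), and RpS13 stood at log2 0.88 (SE 0.34, adjusted p 0.443). Genes with an unadjusted p under 0.05 numbered 0 without LexA replicate 2, 4 without LexA replicate 1, 33 without LexA replicate 3, and 6, 10 and 27 without Top1 replicates 1, 2 and 3. Over all genes, these fits called 12 to 24 higher. With only the 6 libraries of Top1 and LexA in the fit, 71 ribosomal protein genes had such a p. Of these 7 were called higher, beside 125 of 10647 genes in all.

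cnc had a median log2 fold change of 0.53 with none called, beside 0.289% of all genes, and none by DESeq2. At an unadjusted p under 0.05, 6 were higher, beside 3.75% of all genes. Its libraries differed: the median member stood at 1.01, 0.14 and 0.37 from the LexA mean in replicates 1, 2 and 3. RpL22 had 214, 127 and 144 CPM in cnc, against 87.9, 78.1 and 90.9 CPM in LexA (log2 0.92, SE 0.36, adjusted p 0.519). It was among 8 genes whose cnc libraries all lay above LexA, beside 6.17% of all genes. RpS25 was another (log2 0.75, SE 0.33, adjusted p 0.619). Genes with an unadjusted p under 0.05 numbered 1, 1 and 21 without LexA replicates 1, 2 and 3, and 0, 23 and 6 without cnc replicates 1, 2 and 3. Over all genes, these fits called 11 to 19 higher.

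TH1 and Taf1 were closest to LexA. TH1 had no gene called by edgeR (0.202% of all genes) or DESeq2 and none at an unadjusted p under 0.05 (4.74% of all genes), with a median log2 fold change of -0.04 over the set and 0.02 over all genes. Its 3 libraries stood at 0.004, -0.069 and 0.055. The smallest p values were those of RpL41 (log2 0.56, SE 0.39) and RpL34a (-0.34, SE 0.32), each with an adjusted p of 0.999. Taf1 had a median of 0.21, against -0.02 over all genes, with none called (0.148% of all genes), none by DESeq2 and 2 higher at an unadjusted p under 0.05 (2.65% of all genes). These were RpL41, with 41.9, 65.1 and 40.2 CPM in Taf1 against 24.4, 21.3 and 34.9 CPM in LexA, and RpL39, with 10.5, 14.5 and 11.3 CPM in Taf1 against 6.5, 1.42 and 9.86 CPM in LexA. Both genes lay above LexA in all 3 Taf1 libraries (log2 0.88 and 1.04, adjusted p 0.827 and 0.838), and the count of 2 was 0 without LexA replicate 1, LexA replicate 2 or Taf1 replicate 2.

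Trl had the lowest median of the 9 knockdowns, at -0.37, while the median of all genes was 0.21. None was called, beside 2.55% of all genes, and none by DESeq2, and 1 was lower at an unadjusted p under 0.05, beside 15.8% of all genes. That gene, RpS12, had 8.42, 18.6 and 29 CPM in Trl, against 29.1, 23.2 and 50.5 CPM in LexA (log2 -0.87, SE 0.39, adjusted p 0.16). RpS27A followed (log2 -0.59, SE 0.3, adjusted p 0.203). The low median came with Trl replicate 1, in which the median member stood at -1.39, while replicates 2 and 3 stood at -0.33 and 0.22. In replicate 1, 80 of 85 genes were below every LexA library, beside 35.2% of all genes, and 2 were above, beside 41.7%. The Trl libraries had 134, 172 and 101 reads outside annotated features per 100 gene counts, against 79.3 to 92.4 in LexA. With this ratio as a covariate the median of the set was 0.13, so the direction for Trl turns with that setting. As a share of raw gene counts, without TMM scaling, the set held 0.26%, 0.622% and 0.655% in Trl, against 0.339% to 0.633% in LexA. The mean share was 0.512% in Trl and 0.483% in LexA. Without Trl replicate 1 the median was -0.0573 and none had an unadjusted p under 0.05. Without Trl replicate 3 it was -0.79, with 39 such genes and a smallest adjusted p of 0.0535. Of 15461 genes in all, that fit called 305 higher and 885 lower. The count of ribosomal protein genes with an unadjusted p under 0.05 was 3 without LexA replicate 2, and 0 without LexA replicate 3 or Trl replicate 2.

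Other genes of translation moved to different extents in Spt5 against LexA, in which 11.0% of all genes were called higher and 5.42% lower. Of 11 elongation and release factors, 6 rose and none fell, with a median log2 fold change of 1.12. eEF1alpha1, which delivers aminoacyl-tRNA, had 3900, 3650 and 1150 CPM in Spt5, against 808, 695 and 1020 CPM in LexA (log2 1.78, SE 0.37, adjusted p 0.0037). eEF5 (1.65, SE 0.32), eEF1beta (1.39, SE 0.33) and eEF2 (1.3, SE 0.34) rose as well. Of 33 initiation factors, 9 rose (median 0.55), led by the helicase gene eIF4A (1.29, SE 0.27, adjusted p 0.0037), with eIF3g1 (1.22, SE 0.28), eIF3f1 (1.31, SE 0.32) and the poly(A)-binding protein gene pAbp (1.13, SE 0.28). Of 7 genes of ribosome-associated or ribosomal protein-like factors, 5 rose, among them Tctp (1.32, SE 0.33), Rack1 (1.24, SE 0.35), a scaffold on the small subunit, and Nacalpha (1.07, SE 0.35), a chaperone of nascent chains.

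The genes that make ribosomes and those of the mitochondrial ribosome had medians nearer 0. Of 29 genes of ribosome biogenesis, 3 rose (Non1, Ns2 and Nnp-1) and 1 fell (wcd, log2 -1.12, SE 0.33), near the 11.0% and 5.42% of all genes called higher and lower, with a median of 0.09. Of 71 mitochondrial ribosomal protein genes, 2 rose (mRpL15, 1.71, SE 0.43, and mRpS26, 1.06, SE 0.31) and 1 fell (mRpL24, -0.87, SE 0.28), with a median of 0.2. Both are smaller shares than the 11.0% and 5.42% of all genes. Of 12 regulators of ribosomal protein genes, 1 fell and none rose, in a list too short to set apart from these shares. The gene that fell was Myc (log2 -0.7, SE 0.23, adjusted p 0.036), a transcription factor that promotes ribosome synthesis. The difference between these lists and the cytosolic ribosomal protein genes was not tested.

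**Figure D5:**
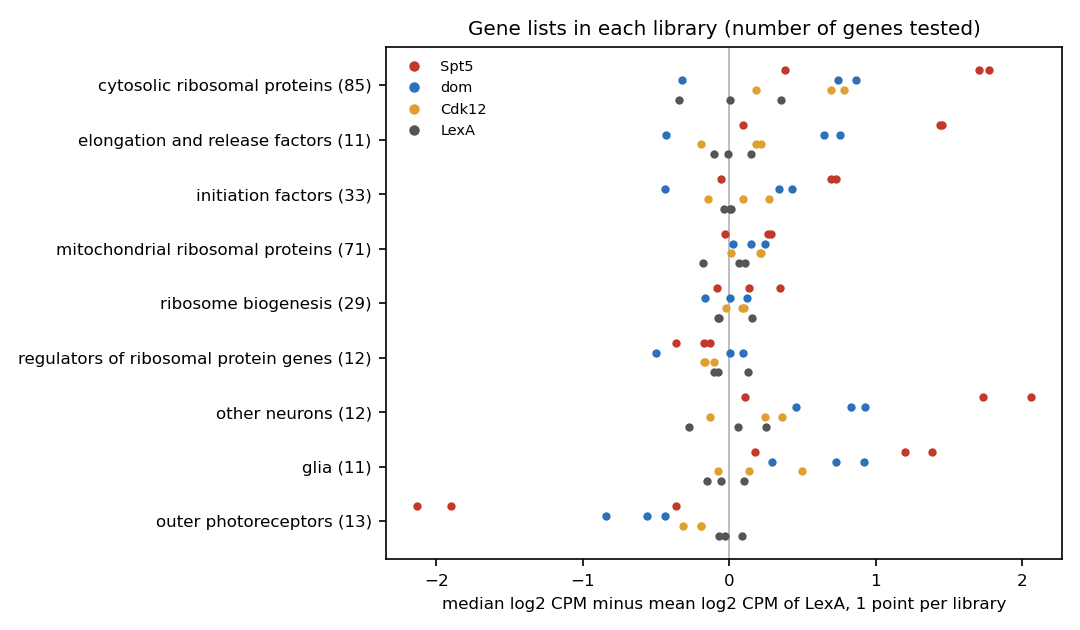
Median of each gene list in every library of Spt5, dom, Cdk12 and LexA, as the log2 CPM difference from the LexA mean. Spt5 replicates 1 and 2 stand apart for cytosolic ribosomal proteins (1.77 and 1.7), elongation and release factors (1.45 and 1.44) and other neurons (2.06 and 1.73), with outer photoreceptor markers at -2.13 and -1.9.

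In dom against LexA the calls in these lists were of other genes, beside 10.4% of all genes called in either direction. Of the 33 initiation factors Thor (log2 1.44, SE 0.28, adjusted p 0.0014), a repressor of cap-dependent initiation, and eIF2beta (1.07, SE 0.22) rose and eIF5B (-0.97, SE 0.2) fell. None of the 11 elongation and release factors was called by edgeR (median 0.44). Of the 12 regulators, Trf2 (0.9, SE 0.18, adjusted p 0.0018) and rictor (0.92, SE 0.22) rose, and S6k (-0.57, SE 0.16) and Mnt (-0.7, SE 0.21) fell. Mat89Ba of the 29 biogenesis genes (1.19, SE 0.28) and mRpL15 of the 71 mitochondrial ribosomal protein genes (1.3, SE 0.43) also rose. Thor was the gene of these lists called in Cdk12 against LexA (1.69, SE 0.29, adjusted p 0.0038), beside 0.195% of all genes.

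In Trl against LexA, eIF2Bdelta (-1.36, SE 0.27) and eIF3j (-0.72, SE 0.19) of 33 initiation factors and eRF3 (-0.69, SE 0.18) of 11 elongation and release factors fell. Of 29 biogenesis genes Nmd3 (-1.01, SE 0.28) fell and Nnp-1 (1.19, SE 0.27) rose. Over all genes, 2.55% were called in either direction. In Spt5 against dom, 4 of 12 regulators were lower in Spt5, among them Myc (-1.22, SE 0.23) and rictor (-1.33, SE 0.22), beside 4.76% of all genes. Of 11 elongation and release factors, eEF5 (1.26, SE 0.31) and eEF1alpha1 (1.27, SE 0.36) were higher, beside 3.43% of all genes. In Spt5 against Cdk12, eEF2 (1.2, SE 0.34) and eEF1gamma (1.25, SE 0.35) were higher in Spt5. eEF1alpha1 was called higher in Spt5 against Cdk12 as well (1.26, SE 0.36), and so in all 3 comparisons of Spt5. In Spt5 against Cdk12, 3 of 11 elongation and release factors were called higher, beside 5.73% of all genes.

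Among 4505 other genes with a mean log2 CPM of at least 3, those whose log2 CPM over the 30 libraries was most like the mean of the ribosomal protein genes included Tctp (Pearson r 0.981), eEF1alpha1 (0.974), Desat1 (0.957), eIF4A (0.956), eEF1beta (0.954), Spn77Ba (0.95), eEF1gamma (0.948), eEF5 (0.943) and Ldsdh1 (0.942). The median gene had an r of 0.271. Tctp had 289, 299 and 125 CPM in Spt5, against 89.4, 80.1 and 117 CPM in LexA. These are descriptions over libraries that share depth and composition.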

How the data were processed

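Nuclear RNA-seq of 30 libraries (10 groups of 3) was used. Per the submitters' processing notes, reads were trimmed with Trimmomatic 0.39, aligned with HISAT2 to BDGP6 and counted with HTSeq. The strand setting, feature type and annotation release are not given in the sources used here, so reads of overlapping genes and near-identical copies are uncertain. Each deposited file holds raw counts per gene for 1 library. Groups come from the sample titles, because genotype labels of several groups count upward over the replicates. Transgene rows and the 5 summary rows, which held 51.8% to 74.5% of reads, stayed out of library sizes and tests. Intervals were not needed for single libraries, and depth covers counting error only.

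Symbols are FlyBase symbols, or the name in the Ensembl annotation of BDGP6 where there was none. Positions come from that annotation, and 17710 of 17807 rows had a symbol. The quasi-likelihood test of edgeR 4.0.16 (R 4.3.3) was run on the counts: minimum count 10, minimum total 15, TMM scaling, 1 fit of all 30 libraries with a mean per group, two-sided F test, Benjamini-Hochberg adjustment over the 14888 tested genes of each comparison, called at an adjusted p under 0.05. CPM were scaled by TMM, and log2 CPM had 2 added as prior count. The standard error (SE) is the log2 fold change divided by the square root of F. Alternatives included DESeq2 1.42.0. Before use, the script was run on simulated counts for all 30 libraries at their own depths, with 200 genes changed in Spt5. The simulation held no level shared by a set of genes within a library, and its outcome is not reported here.

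The members, lists and comparisons were chosen with earlier results of these data known. Named members are the 8 with the smallest adjusted p and those not called in Spt5 against LexA, up to 6 called or the 2 of smallest p elsewhere, paralog pairs, the 5 highest and 5 lowest per kb, a list fixed by role, and the 5 of lowest correlation with the rest. Genes of other lists were named by smallest adjusted p, up to 4 a list in Spt5 and dom against LexA and up to 2 elsewhere, and the 10 most alike genes by correlation. Some genes that this rule names are not reported here. Medians and counts of the set carry no test of their own. In fits with libraries left out or with only 6 libraries, counts at an unadjusted p under 0.05 are of the set only. The share of all genes at that threshold is not given for these fits. No sequences were printed, because no sequence tables were used.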

Additional observations from a re-analysis of the deposited data

Results flagged for a closer look

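Reads that aligned to several places stay outside the gene counts. Their number per 100 gene counts was above that of every LexA library in each library of 3 groups. The lowest Spt5 library had 59.23, the lowest Cdk12 library 72.9 and the lowest Trl library 21.73, just above the highest of LexA, 21.70. Spt5 and Cdk12 share a file layout. Reads outside annotated features were also above every LexA library in each Trl library, with at least 101.3 per 100 gene counts in Trl and at most 92.4 in LexA. The causes were not tested.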

How the results depend on the processing

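Spt5 against LexA kept its direction in all settings tried, with 73 (covariate of reads outside features) to 77 (DESeq2, or size factors by relative log expression) called higher, except with only the 6 libraries of the 2 groups in the fit, where 0 were called and 77 had an unadjusted p under 0.05. In Spt5 against LexA, 1741 of 14888 genes in all were called higher with the covariate and 1863 of 11094 with DESeq2. With only the 6 libraries it was 0 of 11179. Leaving out 1 library gave 12 to 78 in Spt5 against LexA, 0 to 68 in Spt5 against Cdk12, 0 to 75 in Spt5 against dom and 0 to 1 in dom against LexA. Over all genes, these fits called 185 to 2294, 4 to 1966, 180 to 1658 and 319 to 683 higher, in the same order. Spt5 against Cdk12, with 5 called, had 22 with DESeq2, 12 with a minimum count of 50, 3 with TMM factors computed without the set, 1 with no filter on low counts, and 0 with the covariate or with only the 6 libraries. Over all genes, 1180 of 9119 were called higher with DESeq2 and 1059 of 9183 with the minimum count. They numbered 775 of 14888 with those TMM factors and 527 of 17021 with no filter. With the covariate they were 436 of 14888, and with only the 6 libraries 0 of 12589. Spt5 against dom, with 18 called, had 40 with DESeq2, 30 with a minimum count of 50 and 0 with only the 6 libraries. Over all genes, the calls higher were 933 of 14386, 786 of 9183 and 17 of 13066, in the same order. dom against LexA had 1 called with DESeq2, with the covariate, with a minimum count of 50 and with the 24 libraries of 1 file layout. Over all genes, 968 of 10765, 953 of 14888, 989 of 9183 and 1259 of 14334 were called higher in these settings. Cdk12 against LexA had 3 called with DESeq2 and 2 with only the 6 libraries, and Top1 against LexA 7 with only the 6. Over all genes, these settings called 33 of 7803, 39 of 11738 and 125 of 10647 higher. The cause of these changes was not tested. The log2 fold change of RpS19b in Spt5 against LexA, -0.26, was 0.061 with the replicate block and -1.6 to 0.318 when 1 library was left out. The sign of the Trl median turned to 0.134 with the covariate. Scaling shifted the median of all genes by over 0.1 in Trl against LexA (0.175 by relative log expression).

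The replicate numbers were not treated as pairs in the main fit. Same-numbered Spt5 and LexA libraries correlated at 0.008, 0.071 and 0.117 in their deviations from the group means. Over all groups against LexA this ran from -0.248 (Trl replicate 2) to 0.253 (dom replicate 2). Differently numbered libraries were not compared, so these values cannot decide whether the numbers pair the libraries. With the replicate block 77 genes were called in Spt5 against LexA, 16 in Spt5 against dom and 5 in Spt5 against Cdk12. Over all genes, 1671, 511 and 874 of 14888 were called higher, in the same order. Depth limits the copies with at most 57 reads in a library.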
